A study of Homo sapiens with 10 samples.

Results

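The neurofilament, microtubule-associated protein (MAP) and growth cone genes described here were 10 genes of the neuronal cytoskeleton: NEFL, NEFM, NEFH, INA, PRPH, GAP43, STMN2, MAP1B, MAP2 and MAPT. All poly(A) 3′-seq peaks with a summit in their GENCODE 44 gene bodies, or up to 600 bp past their 3′ ends, were taken, which gave 147 peaks of the 178837 in the list. The libraries came from IMR-32 cells, an established human neuroblastoma (NB) line, transduced with lentiviral pLKO.1 vectors and selected with puromycin. They comprised 4 libraries with a short hairpin RNA (shRNA) against CDK12 (CDK12 sh22 and sh98, 2 libraries each), 4 against CDK13 (CDK13 sh701 and sh704, 2 each) and 2 with the GFP control shRNA. CDK12 and CDK13 are kinases of transcribing RNA polymerase II, and the study asked how their loss changes where transcripts are cleaved and polyadenylated. Peaks were called once by the authors, on the pooled reads of the 10 libraries, so the list gives 1 value per peak for the whole experiment. Differences between shCDK12, shCDK13 and shGFP cells, and the spread between replicates, cannot be read from it. The libraries, from different batches, had been downsampled to the size of the smallest before pooling, and that size is not given in the sources used here.

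Neurofilaments are the intermediate filaments of neurons, built from light, medium and heavy chains that assemble together with α-internexin or peripherin and set the caliber of axons. MAPs bind along microtubules, MAP2 mainly in dendrites and tau in axons, while growth cone proteins such as GAP-43 and stathmin-2 act at the growing tip of neurites. Their messenger RNAs (mRNAs) often carry several poly(A) sites, each normally marked by a hexamer such as AATAAA a short way upstream of the cleavage site.

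All 10 genes had exactly 1 peak at the 3′ end of the Ensembl canonical transcript, and each of these 10 peaks had AATAAA (8 peaks) or ATTAAA (2 peaks, in INA and MAPT) within the 50 bases upstream of its 3′ edge, the side nearest the cleavage site. Over all protein-coding genes, 8888 of 12801 such peaks did (69.4%). The share of all protein-coding genes with exactly 1 peak at the canonical end was not computed, and 68.7% had a peak at any annotated end. The hexamer, searched on the strand of the gene only, started 17 to 36 bases before the edge, and 0 to 5 of the 10 bases after the edge were A. Apart from NEFH, whose peak stopped 104 bp short of the annotated end, the edges lay between 6 bp before and 30 bp past it. The reference sequence at 7 of the ends is given below as 30 bases of the plus strand of GRCh38, which is the strand of these genes, with the hexamer in capitals, since it shows the signal that these peaks share.
NEFH, chr22:29491258-29491287: gtgcAATAAAaccaagtgcttataaaatga
INA, chr10:103290317-103290346: ataaATTAAAagtcacacgaatctcaccaa
PRPH, chr12:49298660-49298689: accaAATAAAatgctgtcaagagaaaactc
GAP43, chr3:115721458-115721487: tattAATAAAtcatgagagtaatcaaggtc
MAP1B, chr5:72209539-72209568: ccacAATAAAatacaaaagtggcaaaagtt
MAP2, chr2:209734087-209734116: gcaaAATAAAattgcttgtcacctaactgc
MAPT, chr17:46028325-46028354: tctgATTAAAtaaggtctccattcatggat

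Summits were then placed, in this order, in the window from 200 bp before to 600 bp after any annotated transcription end site (TES) of the gene, in an exon or in an intron. Of the 147 peaks, 22 were TES peaks (15%, 95% Wilson interval 10.1 to 21.6%), 19 were exonic (12.9%, 8.43 to 19.3%) and 106 were intronic (72.1%, 64.4 to 78.7%). Among the 162226 peaks in all 20033 protein-coding genes, each counted for every gene it lay in, the shares were 18.8%, 10.3% and 70.9%. All 10 genes had a TES peak, as did 68.7% of protein-coding genes. By the −log10 of the deposited q-value, the strongest peak of 8 of the 10 genes was a TES peak, against 63.8% of all protein-coding genes with a peak, the exceptions being NEFL and NEFM. With the canonical transcript alone the count fell to 5, because the strongest peaks of STMN2, MAP1B and MAPT lay at ends of other transcripts. Of the 147 peaks, 17 passed 20 on the −log10 q-value scale: 9 of 22 TES peaks (40.9%, against 26.7% over all genes), 5 of 19 exonic peaks (26.3%, against 12.8%) and 3 of 106 intronic peaks (2.83%, against 2.72%). The 95% Wilson intervals of the last 2 shares, 11.8 to 48.8% and 0.967 to 7.99%, held the share over all genes, and so did that of the TES peaks, 23.3 to 61.3%.

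The height of a peak was given as its pileup, the number of extended reads over the summit, recovered from the deposited fold enrichment and p-value. Reads with the same position and strand appear to have been counted once. No recovered pileup exceeded 200, the most that reads of 100 bp can then reach. Larger pileups were not tried in the recovery, but those up to 200 matched the deposited p-values (largest miss in −log10 p 0.000168). Pileups then level off where reads share a cleavage site, and they are not RNA levels. In wide peaks the summit can lie over 100 bp from the 3′ edge. The reads counted at such a summit do not end at that edge, and motif and A counts given for the edge do not describe them. Distances of peaks to the canonical end are measured from the 3′ edge unless a summit is named. Intervals beside pileups are exact 95% Poisson intervals, and all intervals here cover counting error only. The median pileup of the TES peaks was 25.5 reads, that of the exonic peaks 24 and that of the intronic peaks 9, compared with 17, 13 and 8 over all protein-coding genes. The strongest TES peaks of the 10 genes had a median −log10 q-value of 28.3, against 20.1 over the 13761 genes that had one.

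**Figure D1:**
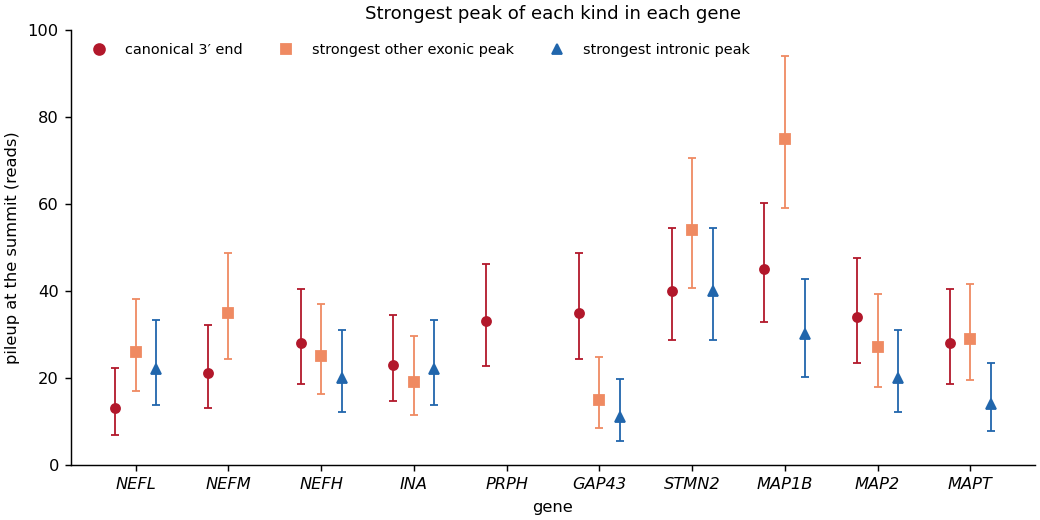
Pileup at the summit (reads, vertical axis) of the canonical 3′ end, the strongest other exonic peak and the strongest intronic peak of each of the 10 genes, with exact 95% Poisson intervals as bars. At the canonical end the pileup ran from 13 in NEFL to 45 in MAP1B. In MAP1B the other exonic peak stood at 75, and in STMN2 the intronic peak was as high as the canonical end, at 40.

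Of the 106 intronic peaks, 80 had at least 7 A in the 10 genomic bases after the 3′ edge (75.5%, 66.5 to 82.7%), against 66.8% of 115058 intronic peaks over all genes. Oligo(dT) primers can also anneal to such stretches inside a transcript, so a peak beside one need not mark a cleavage site, and the 2 origins cannot be told apart in this list. Only 6 intronic peaks (5.66%, against 7.40% over all genes) had AATAAA or ATTAAA 10 to 35 bases upstream together with fewer than 7 A downstream. These were 4 peaks of STMN2 and 1 each of INA and MAP2. The MAP genes held 70 A-rich peaks among 87 intronic ones, the growth cone genes 8 among 14 and the intermediate filament genes 2 among 5. On the opposite strand an A-rich stretch adjoined only 3 of all 147 peaks (2.04%, against 5.69% over all genes). Of the peaks at TES, 5 of 22 were A-rich on the strand of the gene (22.7%, against 6078 of 30419 over all genes, or 20%), and of the exonic peaks 7 of 19 (36.8%, against 31.5%). The reference sequences around the 3′ edge of the strongest intronic peak of 5 genes show the range from a plain A tract to a hexamer with no A after it. The last 10 bases, in capitals, are those past the edge, and a hexamer is also in capitals where there is one.
INA, intron 1, chr10:103282908-103282952: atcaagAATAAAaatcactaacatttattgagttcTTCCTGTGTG
MAP1B, intron 2, chr5:72130143-72130187: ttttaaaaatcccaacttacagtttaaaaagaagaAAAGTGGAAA
MAP2, intron 4, chr2:209630987-209631031: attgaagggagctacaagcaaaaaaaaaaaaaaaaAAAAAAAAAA
MAPT, intron 4, chr17:45981995-45982039: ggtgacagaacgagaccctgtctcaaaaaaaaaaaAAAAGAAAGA
NEFH, intron 3, chr22:29486076-29486120: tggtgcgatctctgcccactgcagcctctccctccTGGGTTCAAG

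The letters GTCTCAAA, with which the Alu repeat consensus passes into its A tail, stood out in the MAPT sequence and were then searched from 50 bases before to 10 bases after every 3′ edge, reading along the gene. They were present at 20 of the 106 intronic peaks (18.9%, 12.6 to 27.4%), against 11.7% of the intronic peaks over all genes. MAP2 held 11 of these peaks and MAPT 5. None of the 19 exonic peaks and 1 of the 22 TES peaks had them, against 2.04% and 2.85% over all genes. A match describes the letters only, and repeats were not annotated here.

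**Figure D2:**
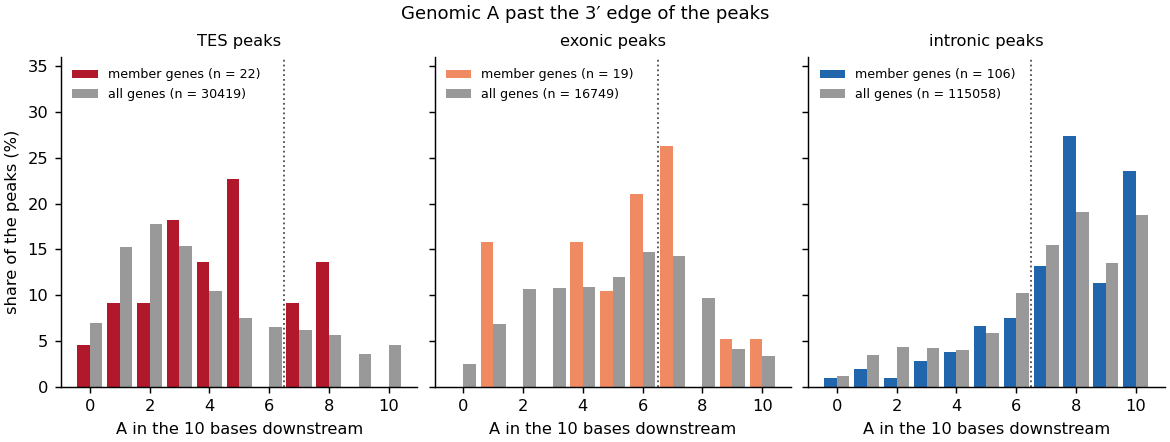
Share of peaks (%, vertical axis) by the number of A in the 10 genomic bases past the 3′ edge, for TES, exonic and intronic peaks. Colored bars are the 10 genes, gray bars all protein-coding genes, and the dotted line marks the limit of 7. Intronic peaks piled up at 8 A (27.4% of the peaks of the 10 genes) and 10 A (23.6%), whereas TES peaks of the 10 genes were most frequent at 5 A (22.7%).

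Coding exons held 12 of the 147 peaks, in 7 of the genes, upstream of the canonical 3′ UTR. None of the 12 had AATAAA or ATTAAA within 50 bases of the edge, and 1 had at least 7 A right after the edge. These features describe the edge alone. In the wide peaks among them, such as those of NEFM and the strongest of MAP1B, the reads at the summit did not end there. A −log10 q-value of 20 was passed by 4 of the 12. For coding exons alone, no share over all genes was computed, neither for the 12 of 147 nor for these 3 counts. The exonic class of all genes had 26.7%, 31.5% and 12.8%, in this order. That class is not the same set: it also includes UTR peaks and leaves out peaks in TES windows, which 3 of the 12 were. The 10 bases with the most A inside the strongest coding-exon peak are shown in capitals for 3 genes in which all 40 bases printed lie within a single coding exon. In INA and GAP43 the 40 bases did not, and those of NEFM and STMN2 are not reported here. The 10 bases in capitals held 9 A in MAP1B, 8 in MAP2 and 7 in NEFH. A wide peak has more such windows to choose from, and no share over all genes was computed for them.
MAP1B, exon 5, chr5:72195525-72195564: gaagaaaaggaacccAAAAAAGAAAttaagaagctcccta
MAP2, exon 9, chr2:209696622-209696661: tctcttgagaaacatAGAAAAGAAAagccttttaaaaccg
NEFH, exon 4, chr22:29488976-29489015: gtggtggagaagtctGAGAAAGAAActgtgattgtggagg

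Among the intermediate filament genes, only PRPH had no peak other than that at its end, and in NEFL and NEFM peaks inside the transcript had higher pileups than the end, with overlapping intervals. The 5 genes held 17 peaks, of which 5 were TES, 7 exonic and 5 intronic. NEFL (ENSG00000277586, chr8:24950955-24956721, minus strand), the light chain, had the weakest canonical end of the 10 genes, with a pileup of 13 (6.9 to 22.2) and a −log10 q-value of 5.94, and 94.3% of genes with a TES peak had one at least as strong. A peak 448 bp upstream in the 3′ UTR had 26 reads (17.0 to 38.1), and another 1423 bp upstream had 24 (15.4 to 35.7). The latter lay 21 bases past the start of an AATAAA with 1 A in the 10 bases after it. The single intronic peak of NEFL, with 22 reads (13.8 to 33.3), had its summit 1 bp before exon 4, and 54 of its 133 bp lay in that exon.

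NEFM (ENSG00000104722, chr8:24913758-24919098, plus strand), the medium chain, had 3 peaks, all in its last exon. The end reached 21 reads (13.0 to 32.1), and coding-exon peaks 953 and 1493 bp upstream reached 35 (24.4 to 48.7) and 34 (23.5 to 47.5), with 4 and 6 A after the edge. The summits of these coding-exon peaks lay 1147 and 1809 bp before the end. They were over 100 bp from the edges, so the reads counted there did not end at the edges. NEFH (ENSG00000100285, chr22:29480218-29491390, plus strand), the heavy chain, showed a higher end of 28 reads (18.6 to 40.5), coding-exon peaks of 25 (16.2 to 36.9) and 23 (14.6 to 34.5) in exon 4, and intronic peaks of 9, 14 and 20. In introns 1 and 2 of NEFH, all 10 bases after the edge were A. The intron 3 peak, the highest of these, had 2 A after its edge and 5 A on the opposite strand.

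INA (ENSG00000148798, chr10:103277138-103290346, plus strand) encodes α-internexin, a filament protein of early neurons. Its end had 23 reads (14.6 to 34.5) and a coding-exon peak 19 (11.4 to 29.7). The remaining peak, in intron 1 at 5.76 kb from the start, was about as high as the end, at 22 reads (13.8 to 33.3), with AATAAA starting 29 bases before the edge and no A in the 10 bases after it, as the sequence above shows. A run of 10 A lay elsewhere inside this peak, which was 303 bp wide, outside the bases printed. No GENCODE 44 transcript of INA ended at this peak. PRPH (ENSG00000135406, chr12:49295147-49298686, plus strand) encodes peripherin, the filament protein of peripheral and sympathetic neurons. It had the single peak at its end, with 33 reads (22.7 to 46.3) and a −log10 q-value of 35.4, a value matched or passed in 17.7% of genes with a TES peak. The antisense gene TROAP-AS1 overlaps that peak, and since the list gives no strand, reads of the 2 genes cannot be told apart.

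**Figure D3:**
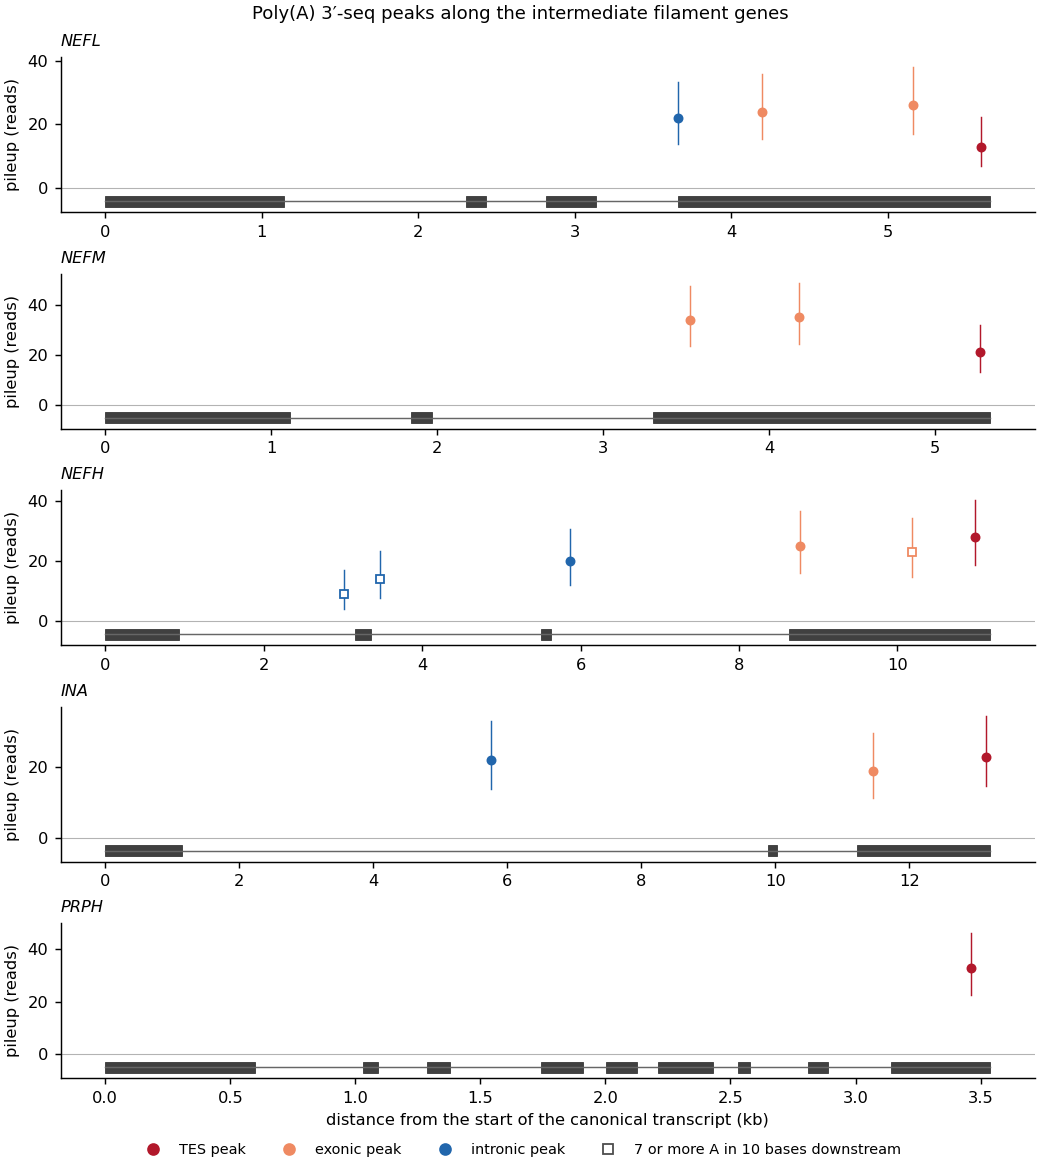
Peaks along NEFL, NEFM, NEFH, INA and PRPH. The horizontal axis is the distance from the start of the canonical transcript (kb) and the vertical axis the pileup (reads) with exact 95% Poisson intervals. Gray boxes are exons, colors the class of the peak, and open squares peaks followed by 7 or more A in 10 bases. In NEFL and NEFM the end peak (13 and 21 reads) sits below the exonic peaks upstream of it.

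The growth cone genes differed in how their peaks were spread. GAP43 had its highest pileup at its end and few other peaks, of 15 reads or fewer, over a long gene. STMN2 had strong peaks both at its end and in intron 1. GAP43 (ENSG00000172020, chr3:115623510-115721490, plus strand), a protein kinase C substrate of the growth cone membrane, had 7 peaks. Its end had 35 reads (24.4 to 48.7) and a −log10 q-value of 42.5, reached by 10.2% of genes with a TES peak. The next peak, in coding exon 2, had 15 reads (8.4 to 24.7) and a −log10 q-value of 20.1. A 3′ UTR peak 436 bp before the end had 13 reads (6.9 to 22.2) and was followed by 10 A in 10 bases. Introns of GAP43 held 3 peaks of 6 to 11 reads, all in intron 1, or 3.12 per 100 kb of intron. Of the 10052 genes with a TES peak and at least 10 kb of intron, 87.0% had at least this density, and their median was 12.4 per 100 kb (quartiles 6.91 and 17.3).

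STMN2 (ENSG00000104435, chr8:79611117-79666158, plus strand) encodes stathmin-2, a tubulin-binding protein needed for axon growth and repair. It held 15 peaks, 2 of them TES, 2 exonic and 11 intronic. The canonical end had 40 reads (28.6 to 54.5) and a −log10 q-value of 37.2. The strongest TES peak of the gene lay upstream, at an annotated end of another transcript. Its 3′ edge was 908 bp and its summit 1197 bp before the canonical end. It had 54 reads (40.6 to 70.5) and a −log10 q-value of 57.1, and 2.97% of genes with a TES peak had one as strong. That peak had no AATAAA or ATTAAA within 50 bases of its edge, 7 A in the 10 bases after the edge and a run of 10 A within or next to it. The 54 reads at its summit, over 100 bp away, did not end at this edge. By contrast, the canonical end had AATAAA 25 bases before the edge and 1 A after it.

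Intron 1 of STMN2 is known as the place of a cryptic terminal exon that the RNA-binding protein TDP-43 normally keeps out of the mRNA. In the pooled list it held 9 of the 11 intronic peaks, or 35.2 per 100 kb, and made up 48.2% of the intron length of the canonical transcript. The highest, chr8:79616752-79617206 at 5.89 kb from the start, was 455 bp wide and had 40 reads (28.6 to 54.5), the same pileup as the canonical end, with a fold enrichment of 16.9 and a −log10 q-value of 39.4. AATAAA started 22 bases before its edge and 3 of the 10 bases after the edge were A. Within or next to the peak, 4 windows of 10 bases held at least 8 A. Its summit lay 49147 bp and its edge 48952 bp before the canonical end, farther apart than an extended read of 100 bp. The 40 reads counted at the summit therefore did not end at this edge. No transcript of STMN2 in GENCODE 44 ended in the window of this peak, and whether the peak belongs to the cryptic exon was not tested. A further 3 peaks of this intron, at 10.28, 11.19 and 22.92 kb, had AATAAA 28, 15 and 25 bases before the edge and 5, 3 and 1 A after it, but lower pileups of 13 (6.9 to 22.2), 17 (9.9 to 27.2) and 9 (4.1 to 17.1). The other intronic peaks of STMN2, 7 in number, were all A-rich downstream, with pileups of 5 to 20. Which of the 10 libraries gave the reads at 5.89 kb is not known.

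**Figure D4:**
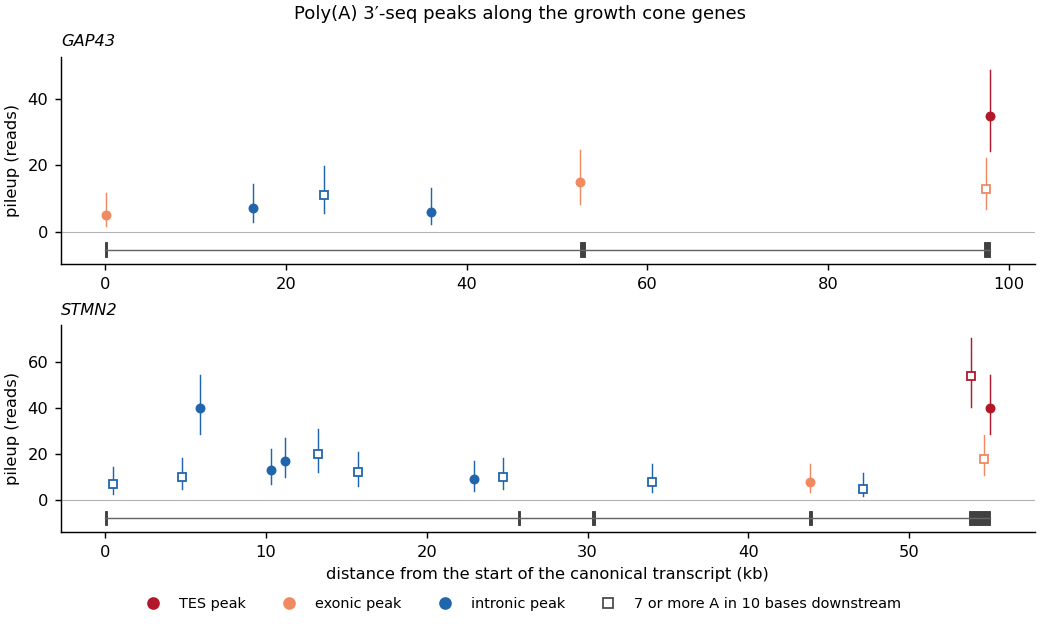
Peaks along GAP43 and STMN2, drawn as pileup (reads, with exact 95% Poisson intervals) against the distance from the start of the canonical transcript (kb), with exons as gray boxes and open squares for peaks with at least 7 A downstream. The STMN2 peak at 5.89 kb in intron 1 stands at 40 reads, level with the canonical end, while GAP43 rises above 15 reads only at its end (35).

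The MAP genes were the longest of the 10 and held 108 of the 147 peaks, 87 of them intronic (80.6%), most of them low and A-rich. Each also had further peaks upstream in the 3′ UTR. MAP1B (ENSG00000131711, chr5:72107234-72209565, plus strand) encodes a MAP of growing axons and had 26 peaks. Its highest, in coding exon 5 at chr5:72194994-72195687, was 694 bp wide with 75 reads (59.0 to 94.0) and a −log10 q-value of 54.9, against 45 reads (32.8 to 60.2) and 27.3 at the canonical end, and the intervals of the pileups overlapped slightly. The 3′ edge of this peak lay 13878 bp before the canonical end. The peak was counted among the TES peaks only because the end of another GENCODE 44 transcript lies nearby. Its A-rich stretch is that shown above for exon 5. Neighboring peaks of exon 5 had 26 (17.0 to 38.1) and 28 reads (18.6 to 40.5). In the 3′ UTR, peaks 3704, 2511 and 459 bp before the end had 53 (39.7 to 69.3), 46 (33.7 to 61.4) and 22 reads (13.8 to 33.3). The middle one had AATAAA 21 bases before its edge, but also 7 A after it.

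Intron 2 of MAP1B, 67.9 kb long and 75.2% of the intron length, held 15 of the 18 peaks in introns of the canonical transcript. The 17 peaks classed as intronic ran from 5 to 30 reads, with 12 of them A-rich and 4 with 10 A in 10 bases. The highest, at 22.61 kb, had 30 reads (20.2 to 42.8), 6 A after the edge and an ATTAAA 47 bases before it. The density of 18.9 per 100 kb was reached by 18.1% of the genes compared.

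MAP2 (ENSG00000078018, chr2:209424047-209734147, plus strand), the dendritic MAP and the longest of the 10 genes at 310 kb, held the most peaks, 55, of which 49 were intronic. The canonical end, with 34 reads (23.5 to 47.5) and a −log10 q-value of 26.8, was its strongest peak. A distance of 3590 bp upstream, another annotated end had 25 reads (16.2 to 36.9), with AATAAA 26 bases before the edge and 3 A after it. Between these lay 3′ UTR peaks of 27 reads each (17.8 to 39.3), 2764 and 234 bp before the end, with 7 and 9 A after the edge. The 49 intronic peaks had a median pileup of 9 and a range of 4 to 20. They numbered 16.4 per 100 kb, 40 of them were A-rich and 13 had 10 A in 10 bases. Introns 1 to 4 held 39 of the 50 peaks in introns of the canonical transcript, between 8 and 12 each. They made up 27.7, 24.1, 15 and 9.32% of the intron length, in that order, so the count of 39 goes with their length. Intron 4 was the densest of these at 32.1 per 100 kb. The intronic peak with a hexamer and few A, in intron 3 at 160.92 kb, was low, with 7 reads (2.8 to 14.4).

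MAPT (ENSG00000186868, chr17:45894527-46028334, plus strand) encodes tau, the axonal MAP of neurofibrillary tangles. Its 27 peaks were 6 TES and 21 intronic, with none in a coding exon. Both 3′ UTR peaks were of about equal height: 29 reads (19.4 to 41.6) at an annotated end 3884 bp upstream, and 28 (18.6 to 40.5) at the canonical end. The intronic peaks had a median pileup of 8, and the highest, in intron 4, had 14 reads (7.7 to 23.5). Of the 21, 18 were A-rich. The other 4 TES peaks of MAPT, like 1 each of MAP1B and MAP2, lay in introns of the canonical transcript where other transcripts end. These 6 had 5 to 10 reads, and 4 of them were A-rich. The upstream 3′ UTR ends of MAP2 and MAPT are shown here as 30 bases of the plus strand of GRCh38 with AATAAA in capitals, to show the hexamer found upstream of the edge at each. In MAP2 it started 26 bases before the edge. In MAPT it started 50 bases before the edge, outside the range of 10 to 35 bases used above, and up to 9 of 10 consecutive bases in that peak were A.
MAP2, chr2:209730493-209730522: ataaAATAAAtaatctcatccccaaactgt
MAPT, chr17:46024397-46024426: tagtAATAAAatatttaaaaaaaaacattc

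**Figure D5:**
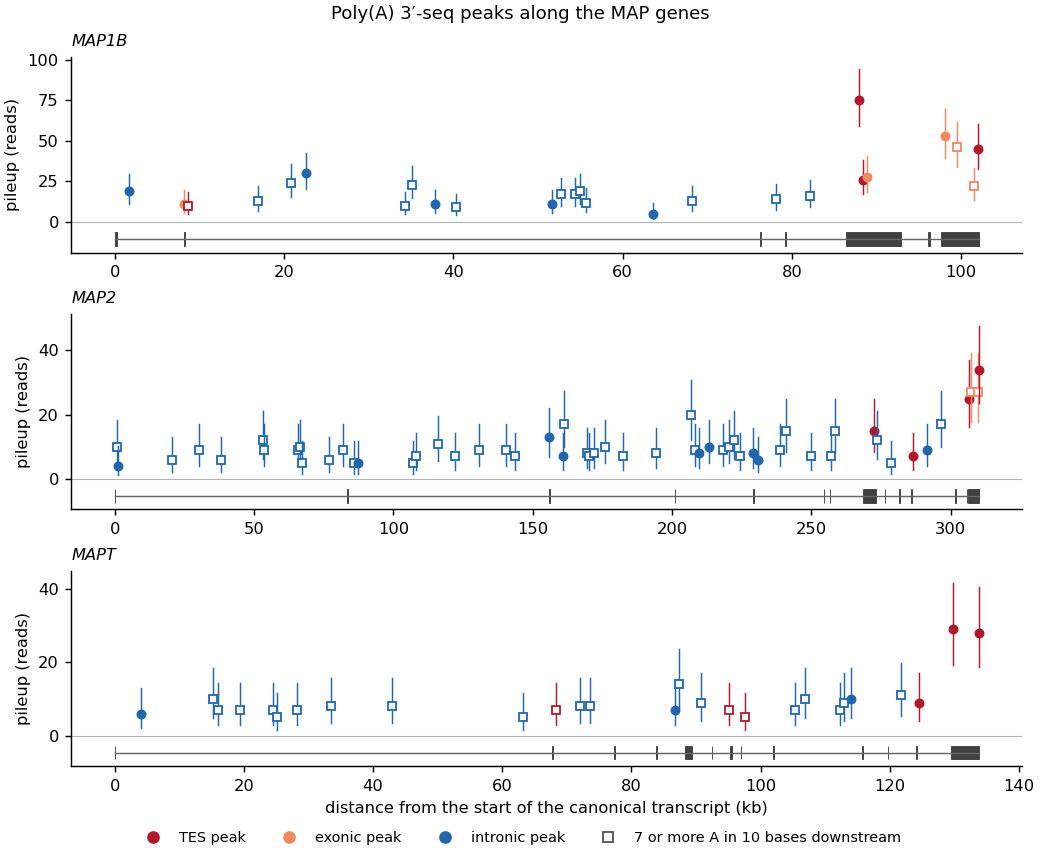
Peaks along MAP1B, MAP2 and MAPT, drawn as pileup (reads, with exact 95% Poisson intervals) against the distance from the start of the canonical transcript (kb), with exons as gray boxes and open squares for peaks with at least 7 A downstream. Intronic peaks stay at or below 30 reads in MAP1B, 20 in MAP2 and 14 in MAPT, and the peaks in the last exon of each gene include higher ones, at up to 53, 34 and 29 reads.

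Considering the 3′ UTRs of all 10 genes together, 12 peaks lay short of the canonical end. AATAAA or ATTAAA stood within 50 bases of the edge in 8 of the 12. In 2 of them, in NEFL and MAP2, a hexamer 10 to 35 bases upstream was combined with fewer than 7 A downstream. No share over such peaks of all genes was computed. Across the 22 TES peaks the share with AATAAA or ATTAAA within 50 bases was 59.1% (13 peaks, 38.7 to 76.7%), compared with 51.3% over all genes. The 9 TES peaks without it lay away from canonical ends. The filter that the authors describe for later steps, which drops a peak with a long A stretch downstream and no hexamer upstream, would have removed 10 of the 147 peaks when measured from the 3′ edge (6.80%, against 5.28% over all genes), all in introns: 3 each in MAP2 and MAPT, 2 in MAP1B and 1 each in NEFH and STMN2.

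The related genes of the cytoskeleton and growth cone were covered in the same way. Of 32 genes listed, 31 had a TES peak (68.7% over all genes), 23 of them past 20 on the −log10 q-value scale, and the median of the strongest TES peaks was 31.0. The strongest were those of CRMP1 (67.5), DPYSL2 (44.9) and DPYSL3 (40.4), of the collapsin response mediators that act in growth cones, STMN1 (43.3), of the stathmins, and MAP4 (42.2), the ubiquitous MAP. DES, the intermediate filament gene of muscle, had no peak. All 3 further stathmin genes and all 5 collapsin response mediator genes had a TES peak. Genes that define adrenergic neuroblastoma, the sympathetic neuron-like state of this tumor, had TES peaks with strongest values of 110 in PHOX2A, 50.7 in CHGA, 46.4 in GATA3, 24.4 in CHGB, 19.4 in HAND2, 17.7 in DBH and 6.8 in ISL1. Of the mesenchymal markers 4 of 5 had a TES peak (16.1 to 21.1, a range that holds the values of HAND2 and DBH), of the astrocyte markers 2 of 3 and of the immune markers 1 of 2, and PRRX1, AQP4 and PTPRC had none. The share of 68.7% over all protein-coding genes applies to these lists too, and the median of the strongest TES peaks over all genes was 20.1. The non-neuronal marker lists, of 2 to 5 genes each, are too small for their counts to be told apart from 68.7%.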

How the data were processed

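Poly(A) 3′-seq libraries of IMR-32 cells (QuantSeq 3′ mRNA REV) were trimmed, mapped to GRCh38 with STAR 2.5.1b, downsampled to the smallest library, merged and used for a single peak call with MACS2 2.1.1 (reads extended to 100 bp) by the authors, whose processing notes also name deepTools 2.5.4 and SAMtools. Peak positions (start, end and summit), the fold enrichment over local background, and the −log10 of the p-value and q-value were used as deposited by the authors. Neither strand nor any value for single libraries, groups or batches is given, so no test was made.

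Summits were placed on GENCODE 44 transcripts, and each peak took the strand of its gene. The pileup was recovered from the fold and p-value (largest miss in −log10 p 0.000168). Sequence was read from GRCh38, which is reference sequence and not that of the cells. Of the genes named, all 10 are members, with the strongest TES and intronic peak of each, all intronic or coding-exon peaks with AATAAA or ATTAAA 10 to 35 bases upstream and fewer than 7 A downstream, and the related genes with the 5 strongest TES peaks or none. Other peaks named, and the GTCTCAAA search, were chosen after values were seen. Members and lists were chosen with earlier results of these data known. On simulated data, 5000 of 5000 pileups, 1000 of 1000 motif distances and 1000 of 1000 A counts were recovered. The pileups were simulated with the formula used to recover them, so this checks the code and not the formula. The sequence at the strongest GAP43 intronic peak and some of the marker genes are not reported here. Alternatives changed the q-value limit, the position of the peak, the TES window, the transcripts, the reach past the 3′ end, the motif set and window, the A limit, the merging of near peaks and the overlap with other genes. Python 3.11.15 with numpy 2.4.6, pandas 2.3.3, scipy 1.17.1, pysam 0.24.0 and matplotlib 3.10.9, and samtools 1.23.1, were used.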

Additional observations from a re-analysis of the deposited data

How the results depend on the processing

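Over 55 alternatives to 7 counts and shares, 42 changed the value little (a share stayed within its 95% Wilson interval), and 13 changed it more. With peaks past 20 on the −log10 q-value scale alone, 17 peaks were left of 147, of which 52.9% were TES peaks (against 15%) and 17.6% intronic (against 72.1%). Among these the share of TES peaks with AATAAA or ATTAAA was 77.8% (against 59.1%) and the share of intronic peaks that were A-rich 33.3% (1 of 3, against 75.5%). With ends of the canonical transcript alone, 6.80% of peaks were TES peaks, 100% of these had the hexamer, and 5 genes had their strongest peak at a TES in place of 8. With any of 12 hexamers the share of TES peaks with a hexamer was 77.3%. Measured from the summit in place of the 3′ edge, it was 9.09%, and the share of A-rich intronic peaks was 2.83%, because a summit lies inside the extended reads. With at least 6 or at least 8 A in 10 bases, 83.0% and 62.3% of intronic peaks were A-rich. Merging peaks closer than 100 bp changed no count, and a reach of 2000 bp past the 3′ end added 1 peak (148). No paired analysis was possible because single libraries cannot be separated in the deposited peaks. Pileups under about 10 reads, as for most intronic peaks, have intervals that span a several-fold range.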

Other observations

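Of the 147 peaks, 5 lay in a second annotated gene: the end of PRPH (TROAP-AS1, minus strand), a GAP43 intron 1 peak of 6 reads (ENSG00000241596, plus strand), and MAPT intron 1 peaks of 6 reads (MAPT-IT1, plus strand), 10 reads and 7 reads (ENSG00000262881, minus strand). The reads of these peaks cannot be assigned to a gene. Without the 5, 142 peaks remained, of which 14.8% were TES peaks and 71.8% intronic. Among the related genes, DST had 86 peaks, NCAM1 70 and DCLK1 60, more than the 55 of MAP2, while the short genes VIM and TPPP3 had 1 each.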
